A study of Homo sapiens with 61 samples.

Results

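The MAP kinase phosphatases are dual-specificity phosphatases that remove phosphate from both the threonine and the tyrosine of an active MAP kinase. DUSP1, DUSP2, DUSP4, DUSP5, DUSP6, DUSP7, DUSP8, DUSP10, DUSP14 and DUSP16 were chosen by symbol, 10 of the 58440 gene identifiers in the count tables, and all 10 were found. DUSP14 lacks the MAP kinase-binding domain of the others and belongs to the atypical dual-specificity phosphatases. The samples were poly(A) RNA-seq libraries of human neurons made from WTC11, an established induced pluripotent stem cell line, in 2 experiments with 61 libraries in 14 groups. In experiment 1, 4 WTC11 lines carried a doxycycline-driven NGN2 cassette: wild type (WT), a knockout of DLK (MAP3K12), a knockout of LZK (MAP3K13) and a double knockout of both. In experiment 2, WTC11 i3Neurons carrying the CRISPRi machinery received lentivirus with a scrambled Control gRNA or a gRNA against ATF2 or JUN, so the Control gRNA neurons carried that machinery and a lentivirus too. On day 14 the neurons of all 7 lines were given 5 nM vincristine, a drug that disrupts microtubules, or DMSO for 16 hours; the DMSO libraries are labelled untreated and are called so here. Experiment 1 had 4 libraries per group and experiment 2 had 5, except the ATF2 gRNA vincristine group with 4. Whether each knockout line is 1 clone is not given in the sources used here, and each genotype is 1 line or 1 gRNA as far as the labels say. The labels do not say that replicates came from separate cultures, so p-values measure only the spread between these libraries, which may be technical.

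Libraries held 8410729 to 14647819 counts in genes in experiment 1 and 38925807 to 88392414 in experiment 2. Levels are CPM, each gene's counts scaled to the library's total (with TMM factors), and are given per library in replicate order or as mean ± SD. Differences between groups are on the log2 scale ± SE from edgeR's quasi-likelihood test, with Benjamini-Hochberg adjusted p over the 18235 genes tested in experiment 1 or the 20759 in experiment 2, and a gene was called where the adjusted p was under 0.05. Summed over 9 neuron markers, levels were 9556 to 15666 CPM in experiment 1 and 8329 to 11820 CPM in experiment 2. The defining genes SOX10, NANOG, GFAP and AQP4 were at most 0.199, 0.484, 1.22 and 1.48 CPM in any library. Summed over 8 astrocyte and oligodendrocyte markers, levels were 18.0 to 58.6 CPM in experiment 1 and 7.06 to 27.0 in experiment 2, with MBP the highest, and over 5 pluripotent cell markers 7.22 to 73.2 and 11.2 to 27.7 CPM, with POU5F1 at most 1.04 CPM. MAP3K12 fell from 91.0 ± 2.23 CPM in untreated WT to 26.3 ± 2.48 in the DLK KO and 19.7 ± 2.42 in the double KO, and MAP3K13 from 99.1 ± 1.93 to 31.9 ± 1.96 in the LZK KO and 29.6 ± 2.00 in the double KO. ATF2 was at 129 ± 18.6 CPM with Control gRNA and 0.526 ± 0.294 with ATF2 gRNA, and JUN at 88.5 ± 6.97 with Control gRNA and 2.87 ± 0.447 with JUN gRNA. Without vincristine, the DLK KO also had less ATF2 RNA than WT (71.0 ± 5.93 against 141 ± 14.0 CPM; -0.99 ± 0.11, adjusted p = 5.75e-09). In the double KO, untreated ATF2 was at 148 ± 6.22 CPM and not called against WT (0.07 ± 0.11, adjusted p = 0.614). Untreated JUN was lower than in WT in the DLK KO, at 55.3 ± 5.34 CPM (-1.34 ± 0.14, adjusted p = 5.82e-09). With vincristine JUN rose from 140.0 ± 8.08 to 507 ± 149.9 CPM in WT and stood at 39.6 ± 2.59 and 46.0 ± 1.15 in the double KO and at 21.0 ± 2.00 and 20.5 ± 3.08 with ATF2 gRNA. The fourth treated WT library had the lowest JUN level of its group, 289 CPM where the highest had 629, and stood apart for DUSP4, DUSP7 and DUSP14. Without it, the vincristine effect in WT was 2.43 for DUSP16, 1.15 for DUSP1, 0.99 for DUSP5, 0.39 for DUSP10 and -0.69 for DUSP7, all still called. Values of the other genes and comparisons without it stand beside those results.

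MAP kinase cascades run from a MAP3K through a MAP2K to a MAP kinase, and DLK and LZK are MAP3Ks that neurons use to start JNK signalling after damage to axons or microtubules. JNK phosphorylates JUN and ATF2, both of which bind DNA as dimers, to AP-1 and cAMP response element type sites. Many MAP kinase phosphatase genes are themselves transcribed in response to MAP kinase activity, and their products then switch the kinase off. By substrate preference they are commonly sorted into the nuclear inducible enzymes DUSP1, DUSP2, DUSP4 and DUSP5, of which DUSP5 is selective for ERK, the cytoplasmic ERK-selective enzymes DUSP6 and DUSP7, and the JNK- and p38-selective enzymes DUSP8, DUSP10 and DUSP16. RNA levels say nothing of how active these enzymes or their substrates were.

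DUSP1, DUSP8 and DUSP16 had the largest changes with vincristine in WT, so the 250 bases before each gene's start are shown, 5′ to 3′ on the gene's strand, from RefSeq on GRCh38.p14. Capitals mark TGACGTCA, the palindromic cAMP response element that ATF2 dimers can bind, or its part TGACGT. The DUSP1 stretch is chr5:172771196-172771445, the DUSP8 stretch chr11:1572272-1572521 and the DUSP16 stretch chr12:12562864-12563113, all on the minus strand.
DUSP1: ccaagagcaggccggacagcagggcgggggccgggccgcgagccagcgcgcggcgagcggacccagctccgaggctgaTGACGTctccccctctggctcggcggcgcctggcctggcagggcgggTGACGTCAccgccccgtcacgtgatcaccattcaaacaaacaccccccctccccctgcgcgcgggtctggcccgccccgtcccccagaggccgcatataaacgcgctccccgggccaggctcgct
DUSP8: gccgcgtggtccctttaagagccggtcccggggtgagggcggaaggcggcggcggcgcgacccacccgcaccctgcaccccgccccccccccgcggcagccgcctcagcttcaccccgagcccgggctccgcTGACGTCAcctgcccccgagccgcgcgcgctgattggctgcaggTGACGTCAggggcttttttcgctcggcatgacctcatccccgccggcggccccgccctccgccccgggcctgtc
DUSP16: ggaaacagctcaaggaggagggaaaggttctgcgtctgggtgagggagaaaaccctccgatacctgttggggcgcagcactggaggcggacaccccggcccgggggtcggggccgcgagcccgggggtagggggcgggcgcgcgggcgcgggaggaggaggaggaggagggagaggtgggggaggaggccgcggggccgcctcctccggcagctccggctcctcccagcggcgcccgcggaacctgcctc
DUSP1 held TGACGTCA at bases -125 to -118 from its start and a separate TGACGT at -172 to -167. DUSP8 held TGACGTCA at -118 to -111 and again at -74 to -67. RefSeq placed the DUSP8 start 351 bases and the DUSP16 start 480 bases upstream of the start in GENCODE 29. It placed the DUSP6 start 770 bases and the second DUSP10 start 5276 bases downstream of the GENCODE start. RefSeq promoters of 8 of the 10 genes were searched, 9 promoters in all. No RefSeq promoter was found for DUSP5, and DUSP4 was left out of the search. Each promoter was searched on both strands over 300 bases (250 before and 50 after the start) for TGACGTCA, TGACGT, the AP-1 site TGANTCA and the CArG box. TGACGT is contained in TGACGTCA. Of 35116 promoters of that length, 1.85% held TGACGTCA, 7.98% TGACGT, 7.71% TGANTCA and 1.29% a CArG box. No match to any of the 4 was in the windows of DUSP2, DUSP6, DUSP7, DUSP10, DUSP14 or DUSP16, which says only that these letters are not there. A match is a description of the sequence, not a site in use.

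Vincristine raised 6 of the phosphatase transcripts in WT neurons, DUSP16, DUSP8, DUSP1, DUSP5, DUSP14 and DUSP10, and lowered DUSP7 and DUSP4. Those 8 were called of 9 tested. Over all genes 30.2% were called, 15.7% higher and 14.5% lower. The same 8 genes were called in the same direction in Control gRNA neurons, where DUSP6 was called lower too. That made 9 of 10, against 35.3% of all genes, 17.1% higher and 18.1% lower. How many of all genes were called alike in WT and Control gRNA was not counted, so no more is read from this overlap. Libraries of the treated and untreated groups did not overlap for 8 of the 10 genes in WT (25.0% of all genes) and for 9 of 10 in Control gRNA (28.9%). In bulk RNA, fewer cells of a type and less RNA per cell cannot be told apart.

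DUSP16, a JNK- and p38-selective phosphatase (ENSG00000111266.8, chr12:12474210-12562383, minus strand, GRCh38), changed most. In untreated WT it stood at 43.4, 42.0, 38.5 and 41.4 CPM and after vincristine at 223, 218, 226 and 209 CPM. The lowest treated library was far above the highest untreated library, and the rise was 2.41 ± 0.09 (5.31-fold, adjusted p = 4.92e-21). With Control gRNA the untreated libraries held 62.3, 64.3, 59.5, 57.7 and 64.3 CPM and the treated libraries 257, 250.4, 259, 251 and 237 CPM. That rise was 2.03 ± 0.07, or 4.07-fold (adjusted p = 2.11e-24).

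DUSP8 (ENSG00000184545.10, chr11:1554044-1571920, minus strand), another enzyme of the JNK and p38 group, was at 84.1, 93.5, 85.7 and 76.6 CPM in untreated WT and 261, 228, 199 and 97.3 CPM after vincristine. All 4 treated libraries were above the untreated ones, but the fourth, at the lower end, was close to them. The rise was 1.21 ± 0.18 (adjusted p = 6.36e-06), and 1.43 without that library. With Control gRNA, DUSP8 went from 125, 139, 120.3, 137 and 130.3 CPM to 269, 298, 278, 306 and 269 CPM, with no overlap and a rise of 1.12 ± 0.07 (adjusted p = 4.65e-14). The long noncoding gene KRTAP5-AS1 overlaps DUSP8 on the opposite strand and moved with it, from 37.3 ± 2.45 to 118 ± 30.7 CPM in WT and from 35.0 ± 2.96 to 118 ± 4.05 with Control gRNA. The library kit marks strand, but the strand setting of the counting is not given in the sources used here, so reads of the overlapping pair cannot be told apart. Overlapping genes of other members, AC022217.3, AC007619.1 and AC024909.2, held at most 18, 29 and 181 counts in a library. The pseudogene DUSP8P5 held 21 to 273 counts per library, and how reads were shared between the copies was not tested.

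DUSP10 (ENSG00000143507.17, chr1:221701424-221742176, minus strand), the third of the JNK and p38 group, rose less. Its untreated WT libraries held 125, 118, 119.6 and 113 CPM and the treated ones 149.8, 158, 159.7 and 180.4 CPM, without overlap, a rise of 0.44 ± 0.07 (adjusted p = 7.62e-06). With Control gRNA it went from 51.3 ± 1.90 to 67.0 ± 3.11 CPM (SD, n = 5 each), a rise of 0.39 ± 0.06 (adjusted p = 6.41e-07).

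DUSP1 (ENSG00000120129.5, chr5:172768090-172771195, minus strand), the inducible nuclear phosphatase of p38, JNK and ERK, was at 15.7, 17.7, 17.4 and 13.5 CPM in untreated WT and 34.0, 38.8, 34.4 and 27.8 CPM after vincristine. The groups did not overlap, and the rise was 1.07 ± 0.10 (2.10-fold, adjusted p = 4.52e-11). With Control gRNA, DUSP1 went from 31.7, 32.9, 28.2, 32.7 and 24.5 CPM to 50.5, 52.5, 52.3, 49.8 and 44.7 CPM. That rise was 0.74 ± 0.07 (adjusted p = 4.77e-12), again without overlap.

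DUSP5 (ENSG00000138166.5, chr10:110497838-110511544, plus strand), the nuclear ERK-selective phosphatase, held 9.08, 8.01, 8.29 and 9.14 CPM in untreated WT and 17.5, 16.8, 17.0 and 15.3 CPM in treated WT, a rise of 0.95 ± 0.12 (adjusted p = 6.88e-08). With Control gRNA it went from 29.6, 30.4, 30.6, 30.4 and 30.6 CPM to 50.9, 52.6, 55.8, 50.3 and 59.2 CPM, a rise of 0.82 ± 0.06 (adjusted p = 1.98e-15). Neither pair of groups overlapped. The cytoplasmic ERK-selective enzymes did not follow DUSP5. DUSP6 (ENSG00000139318.7, chr12:89347232-89353271, minus strand) held 42.3, 42.8, 45.4 and 37.4 CPM in untreated and 41.7, 43.1, 41.5 and 41.3 CPM in treated WT, overlapping ranges and a difference of -0.00 ± 0.07 (95% interval -0.15 to 0.15, adjusted p = 0.975). With Control gRNA it fell instead, from 77.0, 84.8, 73.4, 76.6 and 75.1 CPM to 51.1, 50.7, 49.4, 53.3 and 45.2 CPM, a log2 change of -0.63 ± 0.05 (adjusted p = 2.23e-14). DUSP7 (ENSG00000164086.9, chr3:52048919-52056550, minus strand) fell in both: from 18.5, 21.6, 21.1 and 19.4 CPM to 12.4, 12.7, 12.5 and 9.27 CPM in WT (-0.78 ± 0.12, adjusted p = 1.55e-06), and from 23.6 ± 3.12 to 18.9 ± 1.09 CPM with Control gRNA (-0.32 ± 0.08, adjusted p = 0.000809).

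DUSP4 (ENSG00000120875.8, chr8:29333064-29350668, minus strand), a nuclear phosphatase of ERK and JNK, was at 145, 147, 148 and 145 CPM in untreated WT and 125, 119, 126 and 76.5 CPM after vincristine. All treated libraries were lower, the fourth far lower than the rest. The log2 change was -0.39 ± 0.09 (adjusted p = 0.00163) with that library, -0.25 (adjusted p = 0.00401) without it, and -0.40 and not called (adjusted p = 0.0622) where only the WT groups entered the fit. With Control gRNA, DUSP4 fell from 236 ± 5.57 to 208 ± 4.07 CPM (-0.18 ± 0.03, adjusted p = 8.01e-06). DUSP14 (ENSG00000276023.4, chr17:37489831-37513501, plus strand), the atypical member, was low, at 3.25, 4.01, 4.00 and 3.87 CPM untreated and 5.37, 5.31, 5.22 and 7.33 CPM treated in WT, with the fourth treated library highest. It rose by 0.60 ± 0.17 in WT (adjusted p = 0.00509; 0.48 and 0.0328 without that library) and by 0.58 ± 0.09 with Control gRNA, from 12.2 ± 1.70 to 18.1 ± 1.77 CPM (adjusted p = 8.81e-07). DUSP2 (ENSG00000158050.4, chr2:96143166-96145440, minus strand), best known from immune cells, had 0 to 13 counts per library in experiment 1 and did not pass the filter on low counts there. In Control gRNA neurons it had 1 to 24 counts untreated and 3 to 24 treated, with a difference of -0.13 ± 0.61 (adjusted p = 0.909).

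**Figure D1:**
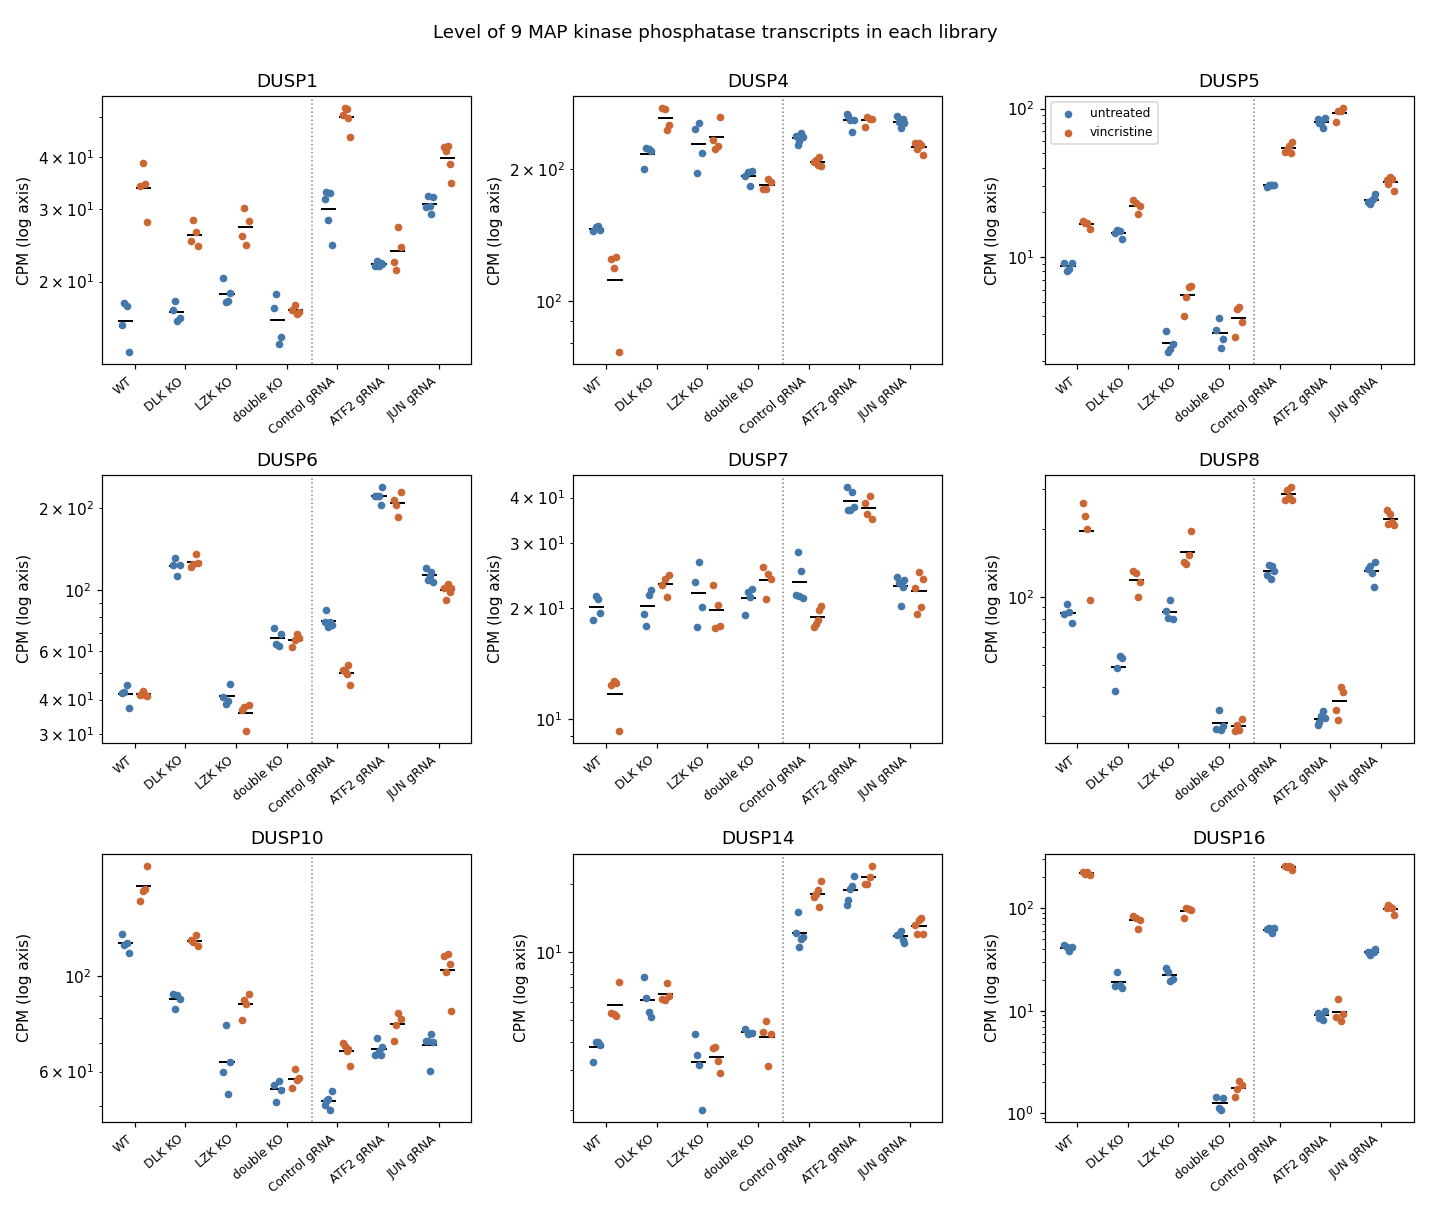
Level of each phosphatase transcript (CPM, log axis) in every library of the 7 lines. Each point is 1 library, blue untreated and orange vincristine, black bars are group means, and the dotted line parts experiment 1 from experiment 2; DUSP2 is left out for its low counts. DUSP16 and DUSP8 separate by treatment in 5 lines and lie low and together in the double KO and ATF2 gRNA lines.

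The sum of progenitor markers, most of it NES, also differed between the treated and untreated groups of WT and Control gRNA. The summed level of 7 neural progenitor and cycling markers was 739 to 781 CPM in untreated WT and 927 to 1954 CPM in treated WT, 1318 to 1409 and 2439 to 2534 CPM with Control gRNA, and 141 to 148 and 141 to 150 CPM in the double KO (none of the 7 at 0 in any group). NES, an intermediate filament gene, made up 95.3% of that sum in untreated WT and 97.8% in treated WT. By group means, the other progenitor and cycling markers together went from 35.3 to 34.2 CPM in WT. They went from 30.2 to 39.8 CPM with Control gRNA and from 51.7 to 60.1 CPM in the double KO. Of the 7, NES and TOP2A were called higher and CCNB1 lower in WT, and NES, TOP2A and SOX2 were called higher with Control gRNA. The summed neuron markers were 11176 to 11874 CPM in untreated and 9556 to 10614 CPM in treated WT, and 11194 to 11820 and 8329 to 8903 CPM with Control gRNA. NEFM alone made up 54.0% of the neuron sum in untreated WT and 44.0% in treated WT. By group means, the other neuron markers together went from 5333 to 5708 CPM in WT and from 6226 to 5582 CPM with Control gRNA. The astrocyte and oligodendrocyte sum was 27.1 to 30.0 CPM in untreated and 32.8 to 38.2 in treated WT, and 13.9 to 17.8 and 23.4 to 27.0 CPM with Control gRNA. The part of these markers in the phosphatase values was not tested.

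In the single knockouts, the same 5 phosphatases rose with vincristine: DUSP16, DUSP8, DUSP1, DUSP5 and DUSP10 in both the DLK KO and the LZK KO. These were 5 of 9 tested in each, against 6.53% of all genes in the DLK KO (4.24% higher) and 3.88% in the LZK KO (2.27% higher). The share of all genes called higher in both single knockouts was not counted. In the DLK KO, DUSP16 went from 17.6, 24.0, 17.9 and 16.8 CPM to 84.1, 80.7, 63.3 and 77.4 CPM (2.00 ± 0.10, adjusted p = 4.58e-17). In the LZK KO it went from 26.2, 23.9, 19.7 and 20.2 CPM to 80.2, 99.9, 98.1 and 96.4 CPM (2.06 ± 0.10, adjusted p = 2.70e-17). Both started and ended below WT, with no overlap between treated and untreated libraries. DUSP8 went from 38.6, 48.6, 54.8 and 53.7 CPM to 131, 128, 99.9 and 116 CPM in the DLK KO (1.28 ± 0.18, adjusted p = 5.12e-05). Its rise in the LZK KO, from 86.7, 80.6, 97.4 and 79.9 CPM to 143, 140.0, 154 and 197 CPM, was 0.88 ± 0.18 (adjusted p = 0.00358). DUSP1 rose by 0.63 ± 0.10 in the DLK KO and 0.53 ± 0.10 in the LZK KO (adjusted p = 5.79e-05 and 0.000734), DUSP5 by 0.62 and 1.07, and DUSP10 by 0.45 and 0.44. DUSP4, DUSP6, DUSP7 and DUSP14 were not called in either line. DUSP4, at 0.28 in the DLK KO (adjusted p = 0.0645), was called there by DESeq2, by voom with quality weights, without the filter, and with only that line's groups in the fit.

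In the double KO no phosphatase was called by edgeR, where 0.0658% of all genes were (12 genes). Unadjusted p in that edgeR test was under 0.05 for 2 of 9 phosphatases and for 1096 of all 18235 genes. DESeq2 and voom called 0 phosphatases as well. DUSP16 held 1.46, 1.12, 1.09 and 1.40 CPM without and 1.44, 1.74, 2.08 and 1.88 CPM with vincristine, or 13 to 24 counts per library. The ranges overlapped slightly, and the difference was 0.52 ± 0.24 (95% interval 0.03 to 1.00, adjusted p = 0.802). DUSP8 held 26.3, 31.7, 26.0 and 27.0 CPM and 25.7, 27.2, 25.9 and 28.9 CPM, overlapping, with a difference of -0.04 ± 0.20 (95% interval -0.46 to 0.37). DUSP1 held 17.3, 18.6, 14.1 and 14.7 CPM and 17.1, 17.5, 16.7 and 16.9 CPM, a difference of 0.08 ± 0.10 (95% interval -0.13 to 0.28). For DUSP5 the difference was 0.36 ± 0.16 (95% interval 0.02 to 0.69), for DUSP10 0.08 ± 0.08 (95% interval -0.07 to 0.24). KRTAP5-AS1, the DUSP8 overlap partner, was at 4.05 ± 0.869 and 5.02 ± 0.802 CPM.

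The difference between lines was itself tested, as the vincristine effect in a knockout minus that in WT. In the double KO, 7 of 9 phosphatases differed from WT, against 19.4% of all genes; 6 had a lower effect (10.2% of genes) and DUSP7 a higher one (9.21%). DUSP16 differed by -1.89 ± 0.27 (adjusted p = 1.84e-06), DUSP8 by -1.25 ± 0.27 (adjusted p = 0.00129) and DUSP1 by -0.99 ± 0.14 (adjusted p = 1.77e-06). DUSP10 differed by -0.36 ± 0.10 (adjusted p = 0.0120). DUSP5 at -0.59 ± 0.20 (adjusted p = 0.0368) and DUSP14 at -0.67 ± 0.24 (adjusted p = 0.0427) were near the threshold. Leaving out 1 of the 16 libraries ended the DUSP5 call for 9 of them (values -0.70 to -0.46, highest adjusted p 0.157) and the DUSP14 call for 12 (-0.77 to -0.54, highest adjusted p 0.115), among them the fourth treated WT library (-0.54, adjusted p = 0.0940). DUSP14 was also not called by DESeq2 (-0.66, adjusted p = 0.0525), by voom (-0.55, adjusted p = 0.0580), without the filter (-0.67, adjusted p = 0.109) or with the replicate block (-0.67, adjusted p = 0.0502). DUSP5 was not called without the filter (-0.59, adjusted p = 0.0978) or with only the groups compared (-0.59, adjusted p = 0.0514). DUSP7, which fell in WT, held 19.1, 22.1, 21.4 and 22.5 CPM and 25.8, 21.2, 24.7 and 23.9 CPM in the double KO, a difference of 0.94 ± 0.16 from WT (adjusted p = 2.83e-05). Without the fourth treated WT library the differences were -1.91 for DUSP16, -1.47 for DUSP8, -1.07 for DUSP1, -0.63 for DUSP5, -0.30 for DUSP10 and 0.85 for DUSP7, all called.

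Against the single knockouts, fewer differences were called. Comparing the double KO with the DLK KO gave 3 calls (1.14% of all genes): DUSP16 at -1.48 ± 0.27 (adjusted p = 0.00133), DUSP8 at -1.32 ± 0.27 (adjusted p = 0.0100) and DUSP1 at -0.55 ± 0.14 (adjusted p = 0.0436). The DUSP1 call was lost without any of 14 of the 16 libraries (-0.61 to -0.47, highest adjusted p 0.142). DUSP10 was called against the DLK KO by DESeq2 (-0.36, adjusted p = 0.0342), by voom (-0.37, adjusted p = 0.00103) and with only the groups compared (-0.37, adjusted p = 0.000286). DUSP4 was called there by voom (-0.35, adjusted p = 0.00111) and with only the groups compared (-0.35, adjusted p = 0.000231). Against the LZK KO only DUSP16 was called (-1.54 ± 0.27, adjusted p = 0.000815; 0.916% of all genes). DUSP8, at -0.92 ± 0.27, missed the threshold there (adjusted p = 0.136). It was called there by DESeq2 (-0.92, adjusted p = 0.0155), by voom (-0.84, adjusted p = 0.0159) and with only the groups compared (-0.92, adjusted p = 0.000421). DUSP10 was called there by voom (-0.37, adjusted p = 0.00996) and without the second untreated LZK KO library (-0.47, adjusted p = 0.00626). With 1.27 CPM of untreated DUSP16 in the double KO, the DUSP16 ratios rest on few counts.

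The single knockouts differed from WT in fewer members. For the DLK KO 4 were called (19.4% of all genes). DUSP7 and DUSP4, which fell with vincristine in WT, differed by 0.98 ± 0.16 (adjusted p = 2.25e-05) and 0.67 ± 0.13 (adjusted p = 0.000417). DUSP4 went from 200.4, 224, 222 and 220.4 CPM to 276, 276, 246 and 253 CPM in that line. DUSP1 and DUSP16 rose less than in WT, with differences of -0.44 ± 0.14 (adjusted p = 0.0222) and -0.41 ± 0.13 (adjusted p = 0.0289). The DUSP16 difference was not called without the second untreated DLK KO library (-0.28, adjusted p = 0.136), the third treated DLK KO library (-0.33, adjusted p = 0.0741) or the third untreated WT library (-0.38, adjusted p = 0.0635). The DUSP1 difference was not called without the fourth untreated (-0.37, adjusted p = 0.0579) or the second treated WT library (-0.38, adjusted p = 0.0542), nor without the filter (-0.44, adjusted p = 0.0606). For the LZK KO 3 were called (12.4% of all genes): DUSP1 at -0.53 ± 0.14, DUSP4 at 0.44 ± 0.13 and DUSP7 at 0.62 ± 0.16 (adjusted p = 0.00884, 0.0265 and 0.00841). DUSP4 was not called without the second untreated (0.37, adjusted p = 0.0636) or the fourth treated LZK KO library (0.38, adjusted p = 0.0561). With only the groups compared in the fit, neither DUSP4 (0.46, adjusted p = 0.116) nor DUSP1 (-0.51, adjusted p = 0.0673) was called. DUSP16 was called without the third untreated LZK KO library (-0.40, adjusted p = 0.0493). Without the fourth treated WT library, DUSP8 (-0.55, adjusted p = 0.0183) and DUSP16 (-0.37, adjusted p = 0.0484) were called too, making 5. In that fit the DLK KO differed by 0.89 for DUSP7, 0.53 for DUSP4, -0.52 for DUSP1 and -0.43 for DUSP16, and the LZK KO by 0.53, 0.30 and -0.61 for DUSP7, DUSP4 and DUSP1, all called. The comparisons with WT share the WT libraries.

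**Figure D2:**
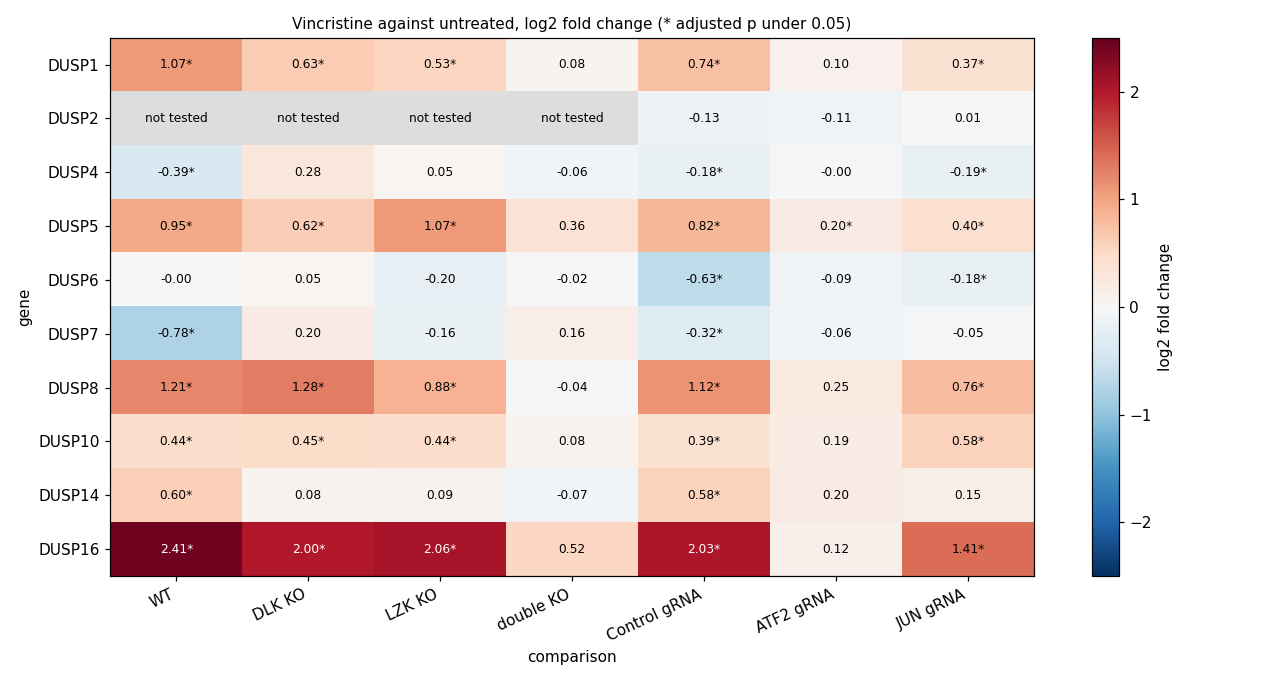
Log2 fold change of each phosphatase with vincristine in each of the 7 lines; red is higher with vincristine, blue lower, a star marks an adjusted p under 0.05 and grey a gene not tested. The DUSP16 row runs from 2.41 in WT to 0.12 with ATF2 gRNA, and the double KO column has no star.

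In the second experiment, the ATF2 gRNA neurons had 1 called phosphatase of 10, against 6.10% of all genes, and the JUN gRNA neurons had 7, 5 higher and 2 lower. Of all genes 15.9% were called with JUN gRNA, 7.58% higher and 8.31% lower. All 7 were called in the same direction with Control gRNA, and the share of all genes called alike in both was not counted. DUSP16 held 9.46, 8.54, 9.19, 8.06 and 9.88 CPM without and 8.78, 12.9, 7.98 and 9.39 CPM with vincristine under ATF2 gRNA, overlapping groups with a difference of 0.12 ± 0.09 (95% interval -0.06 to 0.30, adjusted p = 0.529). With JUN gRNA it went from 37.4, 35.0, 37.3, 37.2 and 39.6 CPM to 101, 106, 102, 99.6 and 85.2 CPM, a rise of 1.41 ± 0.07 (adjusted p = 1.41e-18). DUSP8 held 27.2, 28.0, 29.7, 31.3 and 29.2 CPM and 31.7, 28.6, 40.3 and 38.3 CPM with ATF2 gRNA, a difference of 0.25 ± 0.08 (adjusted p = 0.0574), called in 6 of 16 alternatives (0.18 to 0.34 with 1 library left out). With JUN gRNA, DUSP8 went from 134, 137, 128, 111 and 143 CPM to 243, 211, 233, 214 and 208 CPM (0.76 ± 0.07, adjusted p = 1.38e-09). DUSP1 held 21.9, 22.4, 21.9, 22.2 and 22.0 CPM and 22.3, 21.3, 27.1 and 24.2 CPM with ATF2 gRNA (0.10 ± 0.08, adjusted p = 0.541). With JUN gRNA it went from 30.8 ± 1.33 to 39.8 ± 3.39 CPM (0.37 ± 0.07, adjusted p = 8.47e-05).

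DUSP5 was the 1 call with ATF2 gRNA, from 84.8, 79.4, 80.8, 73.9 and 86.8 CPM to 80.7, 96.6, 95.7 and 100.4 CPM, a rise of 0.20 ± 0.06 (adjusted p = 0.0417). The ranges overlapped, and the call was lost with 6 of the 9 libraries left out in turn (0.17 to 0.27, highest adjusted p 0.138). DUSP10 was near the threshold, from 67.7 ± 2.61 to 77.3 ± 4.96 CPM (0.19 ± 0.06, adjusted p = 0.0589), and was called in 8 of 16 alternatives (0.17 to 0.24 with 1 library left out). With JUN gRNA, DUSP10 rose by 0.58 ± 0.06 (adjusted p = 1.45e-10) and DUSP5 by 0.40 ± 0.06 (adjusted p = 2.76e-06). DUSP4 and DUSP6 fell there, at -0.19 ± 0.03 and -0.18 ± 0.05 (adjusted p = 1.05e-05 and 0.00736).

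Compared with Control gRNA, 7 of 10 phosphatases had another vincristine effect with ATF2 gRNA, against 20.6% of all genes. In 5 the effect was lower (10.4% of genes) and in 2 higher (10.2%). DUSP16 differed by -1.91 ± 0.11 (adjusted p = 1.36e-16), DUSP8 by -0.87 ± 0.11 (adjusted p = 2.44e-07), DUSP1 by -0.64 ± 0.10 (adjusted p = 6.56e-06) and DUSP5 by -0.62 ± 0.09 (adjusted p = 3.37e-07). DUSP14 differed by -0.38 ± 0.13 (adjusted p = 0.0301), a call lost without any of 8 of the 19 libraries (-0.47 to -0.33, highest adjusted p 0.0773). DUSP6, which fell with Control gRNA, held 221, 221, 221, 206 and 238 CPM and 214, 205, 185 and 228 CPM with ATF2 gRNA and differed by 0.54 ± 0.07 (adjusted p = 9.21e-08). DUSP4 differed by 0.18 ± 0.05 (adjusted p = 0.00315) and was not called without the filter (0.16, adjusted p = 0.0623). DUSP1, DUSP5, DUSP8, DUSP14 and DUSP16 were called lower in effect both here and in the double KO against WT. The double KO calls of DUSP5 and DUSP14 were near the threshold and were lost in several alternatives. The share of all genes called lower in both was not counted, so no more is read from this overlap.

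With JUN gRNA 6 of 10 differed from Control gRNA, against 15.8% of all genes. DUSP16, DUSP8, DUSP1, DUSP5 and DUSP14 were lower (7.06% of genes) and DUSP6 higher (8.71%). The differences were -0.62 ± 0.10 for DUSP16, -0.36 ± 0.10 for DUSP8, -0.37 ± 0.10 for DUSP1, -0.43 ± 0.09 for DUSP5, -0.43 ± 0.13 for DUSP14 and 0.45 ± 0.07 for DUSP6, with adjusted p from 3.74e-06 to 0.0155. Set directly against JUN gRNA, ATF2 gRNA had a lower effect on DUSP16 (-1.29 ± 0.11, adjusted p = 1.27e-10), DUSP8 (-0.51 ± 0.11, adjusted p = 0.00422) and DUSP10 (-0.39 ± 0.09, adjusted p = 0.00393) and a higher one on DUSP4 (0.19 ± 0.05, adjusted p = 0.0111). These 4 of 10 compare with 2.83% of all genes. JUN RNA itself was low in the ATF2 gRNA neurons, at 21.0 ± 2.00 CPM against 88.5 ± 6.97 with Control gRNA, so the ATF2 gRNA line was low in both transcripts. The Control gRNA libraries are shared by the ATF2 and JUN comparisons.

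**Figure D3:**
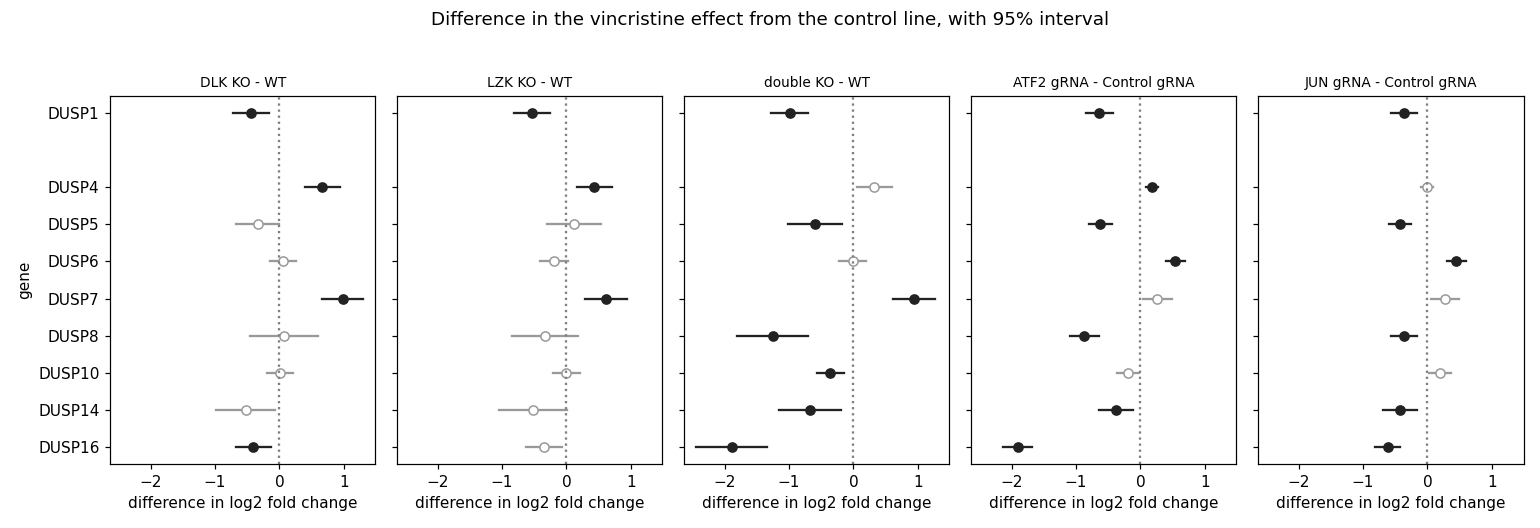
Difference in the vincristine effect (log2) between each altered line and its control line, 1 panel per comparison; points are estimates, bars 95% intervals, filled points have an adjusted p under 0.05, and DUSP2 is left out for its low counts. DUSP16 lies furthest below 0 for the double KO (-1.89) and ATF2 gRNA (-1.91), while its value for JUN gRNA is -0.62.

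Before any drug, the lines already differed in these transcripts. In the double KO, 6 of 9 tested were called against WT (45.7% of all genes), and DUSP16 stood out at 1.27 ± 0.187 CPM against 41.3 ± 2.07 CPM in WT (SD, n = 4 each), a log2 difference of -5.03 ± 0.15 (adjusted p = 1.88e-25). DUSP8 (-1.61 ± 0.19), DUSP5 (-1.48 ± 0.15) and DUSP10 (-1.13 ± 0.07) were lower there too (adjusted p = 6.85e-08, 1.13e-10 and 2.62e-15). DUSP6 and DUSP4 were higher, by 0.67 ± 0.07 and 0.40 ± 0.09 (adjusted p = 6.16e-10 and 0.000632). DUSP1 was not called, at 16.2 ± 2.13 against 16.1 ± 1.93 CPM (0.00 ± 0.10, 95% interval -0.20 to 0.21).

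The single knockouts parted by gene. In the DLK KO 7 of 9 were called (34.5% of all genes). DUSP6 was higher, at 124, 131, 113 and 124 CPM against 37.4 to 45.4 CPM in WT (1.55 ± 0.07, adjusted p = 2.59e-19), and DUSP5 (0.74 ± 0.12), DUSP14 (0.70 ± 0.17) and DUSP4 (0.57 ± 0.09) were higher too. DUSP16 (-1.11 ± 0.10), DUSP8 (-0.80 ± 0.19) and DUSP10 (-0.43 ± 0.07) were lower. In the LZK KO 4 of 9 were called (33.9% of all genes). DUSP5 was lower, at 3.18, 2.29, 2.41 and 2.59 CPM (-1.72 ± 0.16, adjusted p = 3.58e-11), as were DUSP10 (-0.91 ± 0.07) and DUSP16 (-0.88 ± 0.10), and DUSP4 was higher (0.65 ± 0.09). DUSP6 (-0.03 ± 0.07, 95% interval -0.18 to 0.12) and DUSP8 (0.02 ± 0.18, 95% interval -0.35 to 0.39) were not called there. The double KO was then compared with the sum of the 2 single knockouts on the log2 scale, a test chosen after these values were seen. DUSP16 differed from that sum by -3.04 ± 0.20 (adjusted p = 5.94e-15), DUSP8 by -0.84 ± 0.27 (adjusted p = 0.0149), DUSP6 by -0.84 ± 0.10 (adjusted p = 1.94e-08) and DUSP4 by -0.82 ± 0.13 (adjusted p = 5.97e-06). That was 4 of 9, against 36.5% of all genes. Without the filter DUSP8 was not called against the sum (-0.83, adjusted p = 0.0538).

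With ATF2 gRNA all 10 phosphatases were called against Control gRNA before treatment, where 39.9% of all genes were. DUSP16 was lower, at 9.46, 8.54, 9.19, 8.06 and 9.88 CPM against 57.7 to 64.3 CPM (-2.77 ± 0.08, adjusted p = 1.18e-27), and DUSP8 was lower, at 27.2, 28.0, 29.7, 31.3 and 29.2 CPM against 120.3 to 139 CPM (-2.16 ± 0.08, adjusted p = 9.18e-21). DUSP1 was lower too (-0.44 ± 0.07, adjusted p = 1.58e-06). The ERK-selective enzymes were higher: DUSP6 at 221, 221, 221, 206 and 238 CPM (1.52 ± 0.05, adjusted p = 2.01e-28), DUSP5 at 81.1 ± 5.02 CPM (1.42 ± 0.06, adjusted p = 6.29e-24) and DUSP7 at 39.2 ± 2.67 CPM (0.73 ± 0.08, adjusted p = 4.97e-11). DUSP14 (0.63 ± 0.09), DUSP10 (0.40 ± 0.06) and DUSP4 (0.14 ± 0.03) were higher as well. DUSP2 was higher by 1.87 ± 0.61 (adjusted p = 0.0110), on 31 to 64 counts per library against 1 to 24. Scaled to depth, as CPM, the DUSP2 ranges of these groups overlapped.

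With JUN gRNA 5 of 10 were called (11.2% of all genes). DUSP16 (-0.72 ± 0.07) and DUSP5 (-0.32 ± 0.06) were lower, and DUSP6 (0.55 ± 0.05), DUSP10 (0.43 ± 0.06) and DUSP4 (0.13 ± 0.03) higher (adjusted p from 6.53e-12 to 0.00508). DUSP8 held 130.4 ± 11.9 against 130.3 ± 7.86 CPM (0.00 ± 0.07, 95% interval -0.14 to 0.15). ATF2 gRNA was also set directly against JUN gRNA, a comparison added after these values were seen. It called 8 of 10 (34.8% of all genes), among them DUSP16 at -2.05 ± 0.08 and DUSP8 at -2.16 ± 0.08 lower and DUSP5 at 1.74 ± 0.06 and DUSP6 at 0.96 ± 0.05 higher (adjusted p = 2.27e-23, 1.23e-20, 5.82e-27 and 3.54e-21). DUSP4 and DUSP10 were not called.

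Marker genes of other cells differed between the untreated lines too. The 7 progenitor and cycling markers summed to 739 to 781 CPM in WT, 214 to 278 in the DLK KO, 525.9 to 679.7 in the LZK KO and 141 to 148 in the double KO, and to 1318 to 1409 CPM with Control gRNA, 746 to 821 with ATF2 gRNA and 963.5 to 1086 with JUN gRNA. NES made up most of this sum in every line, and the rest did not follow it. Without NES the mean sum was 35.3 CPM in WT, 25.4 in the DLK KO, 87.9 in the LZK KO and 51.7 in the double KO. With Control, ATF2 and JUN gRNA it was 30.2, 37.5 and 24.2 CPM. The 5 pluripotent cell markers summed to 9.13 to 9.93 CPM in WT, 14.3 to 18.5 in the DLK KO, 35.0 to 47.4 in the LZK KO and 65.5 to 70.6 in the double KO, where LIN28A made up most of the sum. They were at 11.3 to 12.3 CPM with Control gRNA, 21.0 to 23.6 with ATF2 gRNA and 15.2 to 18.3 with JUN gRNA. LIN28A was called higher in each of the 5 altered lines and DNMT3B in the LZK KO and the double KO. Neuron markers summed to 11176 to 11874 CPM in WT, 11769 to 12801 in the DLK KO, 12340.4 to 13228 in the LZK KO and 15187 to 15383 in the double KO, and to 11194 to 11820, 10346 to 10692 and 11041 to 11768 CPM with Control, ATF2 and JUN gRNA. NEFM made up 54.0% of the mean sum in WT and 67.7% in the DLK KO. Without NEFM the mean sum was 5333 CPM in WT, 4028 in the DLK KO, 6511 in the LZK KO and 6762 in the double KO. It was 6226, 4823 and 6130 CPM with Control, ATF2 and JUN gRNA. The part of these markers in the phosphatase values was not tested.

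Medians of the genes near some phosphatases lay away from 0 in some comparisons. The tested genes within 2 Mb of each phosphatase were summarised by their median log2 value in each comparison, 220 medians in all, from -0.70 to 0.57, and 14 lay more than 0.3 from 0. For DUSP16 these were -0.45 and -0.35 in the vincristine effect of the DLK KO and the LZK KO against WT, and -0.70 for the untreated double KO beyond the sum (45 genes), beside -0.01 over all genes. The DUSP16 neighbours had -0.23 in the vincristine effect of the double KO against WT and -0.19 in its untreated level. For DUSP6 they were 0.39 in the untreated DLK KO, 0.43 in the double KO, 0.41 with ATF2 gRNA, 0.34 with JUN gRNA and -0.37 beyond the sum. Its neighbours also had 0.31 with vincristine in WT, 0.37 with Control gRNA, and -0.47 and -0.49 in the vincristine effect of ATF2 and JUN gRNA against Control gRNA. For DUSP5 they were 0.57 with vincristine in Control gRNA neurons and -0.37 in the ATF2 gRNA effect against Control gRNA. DUSP6 had 12 such neighbours in experiment 1 and 17 in experiment 2, and DUSP5 had 19 in experiment 2. Windows around other genes were not summarised, so how often medians of this size arise is not known. The part of these neighbours' values in the phosphatase values was not tested.

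**Figure D4:**
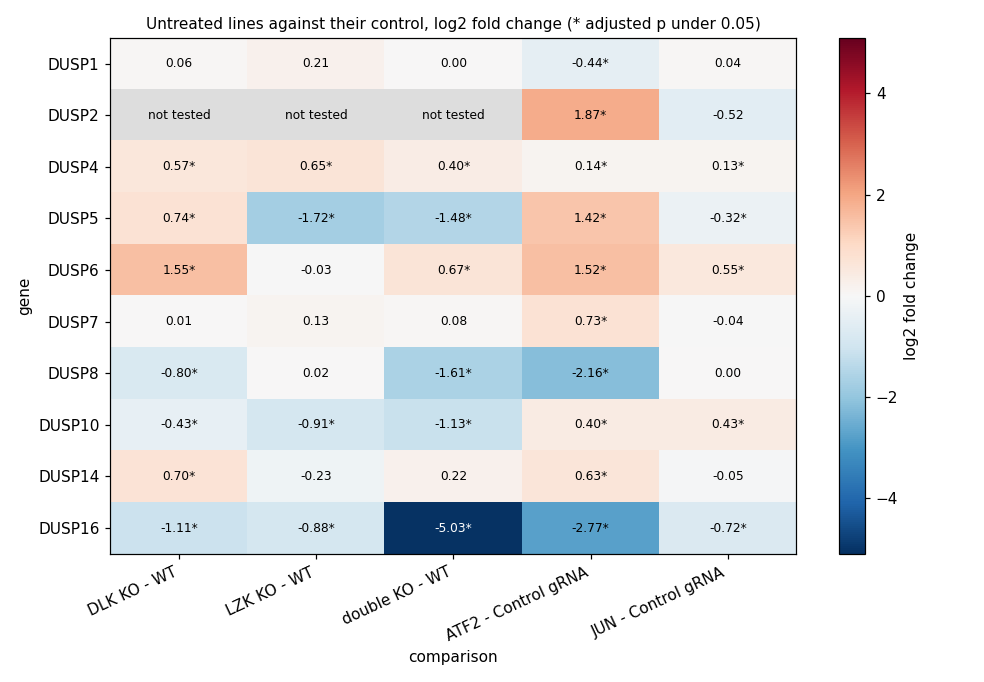
Log2 difference in untreated level between each altered line and its control line; red is higher than the control line, blue lower, a star marks an adjusted p under 0.05 and grey a gene not tested. DUSP16 is blue in all 5 columns, from -0.72 with JUN gRNA to -5.03 in the double KO, and DUSP6 reaches 1.55 in the DLK KO and 1.52 with ATF2 gRNA.

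To compare the genes with each other, levels were divided by exon length (CPM per kb). In untreated WT, DUSP10 was highest, at 40.9 ± 1.67 CPM per kb, apart from the next genes. DUSP4 (20.2 ± 0.228) and DUSP8 (18.4 ± 1.50) followed with overlapping libraries, then DUSP6 (9.06), DUSP1 (7.96) and DUSP16 (7.22), whose neighbours in the order overlapped. DUSP7 (3.57) and DUSP5 (3.30) overlapped as well, with DUSP14 (1.51) and DUSP2 below them. After vincristine the WT order of means began with DUSP10 (55.6), DUSP8 (42.5) and DUSP16 (38.3), and the DUSP8 libraries overlapped those of both others. With Control gRNA, DUSP4 (32.5) and DUSP8 (28.2) led untreated, and DUSP8 (61.5) and DUSP16 (43.8) led after vincristine. DUSP6 led with ATF2 gRNA, at 47.8 CPM per kb untreated. DUSP10 ranked above DUSP4 and DUSP8 in untreated WT and below both with Control gRNA. WT and Control gRNA come from separate experiments, and no test was made across the experiments.

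Of 10 MAP kinase genes, vincristine lowered 2 in WT, MAPK7 (-0.43 ± 0.12) and MAPK9 (-0.13 ± 0.05), and raised none. Of all genes 15.7% rose and 14.5% fell in WT, and 17.1% and 18.1% with Control gRNA. With Control gRNA 6 fell, led by MAPK14 (-0.23 ± 0.07), the p38 alpha kinase, and MAPK7 (-0.22 ± 0.07), and none rose. Of 7 MAP2K genes, MAP2K5 rose (0.49 ± 0.08 in WT, 0.38 ± 0.08 with Control gRNA) and MAP2K3, an activator of p38, fell (-0.68 ± 0.17 and -0.53 ± 0.14). With Control gRNA 3 more MAP2K genes fell, MAP2K6 among them (-0.41 ± 0.08). The list medians were -0.12 and -0.13 for the MAP kinases and -0.10 and -0.13 for the MAP2Ks in WT and Control gRNA, beside medians over all genes of -0.00 and 0.03. For the phosphatases under study they were 0.60 and 0.48. In the double KO no gene of the lists on MAP kinases, MAP2Ks, phosphatases or ERK targets was called. Only 0.0658% of all genes were called there.

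Genes commonly used as readouts of ERK activity, the feedback inhibitors of the SPRY and SPRED families and ETS and immediate early targets, were 12 in all. In WT, 7 rose and 2 fell with vincristine, where 15.7% of all genes rose and 14.5% fell. EGR1, an immediate early transcription factor, rose by 4.01 ± 0.16 and ETV5 by 1.33 ± 0.09, while ETV4 (-0.67 ± 0.19) and SPRED1 (-0.29 ± 0.07) fell. With Control gRNA 4 rose and 4 fell (17.1% and 18.1% of all genes), EGR1 at 3.20 ± 0.11 and ETV5 at 0.69 ± 0.09 the highest, and SPRED1 (-0.37 ± 0.08) and SPRED3 (-0.24 ± 0.07) the lowest. The list medians were 0.29 and -0.03. Untreated ATF2 gRNA neurons, where DUSP5, DUSP6 and DUSP7 were higher, had EGR1 at 536 ± 16.4 CPM against 13.9 ± 1.94 CPM with Control gRNA (5.27 ± 0.11), with 6 of the 12 higher and 5 lower, where 19.7% of all genes were higher and 20.2% lower. In the untreated DLK KO, 9 were higher and none lower (16.5% and 17.9% of all genes).

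Of 13 atypical and other dual-specificity phosphatases, 12 were tested in experiment 1, where 3 rose and 1 fell with vincristine in WT (15.7% and 14.5% of all genes). DUSP19 rose by 0.63 ± 0.21 and DUSP3, which acts on ERK and JNK, by 0.51 ± 0.06, and STYX, a catalytically inactive member, fell by 0.54 ± 0.11. With Control gRNA, DUSP3 (0.67 ± 0.04) and DUSP12 (0.25 ± 0.05) rose. Untreated, DUSP3 was lower than in the control line in the DLK KO (-0.63 ± 0.07), the LZK KO (-0.46 ± 0.07), the double KO (-0.69 ± 0.07) and with ATF2 gRNA (-0.60 ± 0.04). Of 7 tested phosphatases of other families that act on MAP kinases, PPP2CB fell in WT (-0.20 ± 0.07), and 4 fell with Control gRNA (18.1% of all genes), led by PPM1D (-0.22 ± 0.08) and PPM1B (-0.16 ± 0.05).

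Genes whose pattern was most like DUSP16, DUSP8 and DUSP1 were looked for by the Pearson correlation of group means of log2 CPM over the 14 groups, each experiment centred on its own mean, among 13784 genes. These points share libraries and depth, and r is given as a description. For DUSP16 they were DTNA (r = 0.99), CHMP3 (0.97) and ZNF704 (0.97). For DUSP8 they were SH2D3C, GPR137C and LZTS3 (0.99 each). For DUSP1 they were AC008894.3 (0.95), PAK3 (0.94) and TNFAIP1 (0.93). DTNA, which encodes alpha-dystrobrevin, rose with vincristine by 1.40 ± 0.08 in WT and had 0.17 in the double KO and 0.11 with ATF2 gRNA, neither called. SH2D3C rose by 1.16 ± 0.11 in WT, against -0.08 and 0.31, also not called.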

How the data were processed

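Poly(A) RNA from 61 libraries was sequenced, in 2 experiments. The authors deposited raw read counts per gene, 1 table per experiment, with reads trimmed by cutadapt 3.4, aligned with STAR to GRCh38 and counted with featureCounts of Subread 2.0.1, per the submitters' processing notes. STAR's version and the strand setting of the counting are not given in the sources used here. Columns were assigned to libraries by their names, and 0 columns were left unused. Of 58440 identifiers, 58320 matched a symbol in GENCODE 29 (56947 with the same version). No rows without a gene were in the tables.

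Each experiment was fitted with all its groups in edgeR 4.0.16 (R 4.3.3; TMM factors, filterByExpr by group, robust quasi-likelihood test, 2-sided, no replicate block). Totals were 8410729 to 14647819 counts in experiment 1 and 38925807 to 88392414 in experiment 2. SE is the size of the log2 fold change over the root of F, and intervals are 95%. Of 22 comparisons 20 were planned and 2 were added after values were seen. Alternatives were DESeq2 1.42.0, RLE factors, all genes unfiltered, only genes averaging at least 1 CPM, a replicate block, only the groups compared, voom with quality weights (limma 3.58.1) and each library left out. The procedure was tested on simulated counts. No 2 libraries agreed within counting noise (lowest chi-square per degree of freedom 1.55 over 104 pairs within groups).

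The members and gene lists were chosen with earlier results of these data known. Besides the 10 members and the targeted genes, the text names from each further list the 2 called genes with the highest and the 2 with the lowest change in WT and in Control gRNA, and the 3 genes most like each of the 3 members with the largest WT change. KRTAP5-AS1, other overlapping genes, pseudogenes and markers are named outside that rule. RefSeq promoters (GRCh38.p14) are from the reference tables provided.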

Additional observations from a re-analysis of the deposited data

Results flagged for a closer look

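A test for a single library far from its group (Dixon's criterion at 95%) was applied to 140 groups of libraries of the 10 phosphatases and picked out 8 values, about as many as the 1 in 20 that chance gives. The fourth treated WT library accounts for 3 of them, DUSP4 at 76.5 CPM, DUSP7 at 9.27 CPM and DUSP14 at 7.33 CPM. DUSP4 was at 200.4 CPM in the first untreated DLK KO library and 250.1 CPM in the second treated ATF2 gRNA library, DUSP16 at 24.0 CPM in the second untreated DLK KO library, DUSP5 at 29.6 CPM in the first untreated Control gRNA library and DUSP10 at 60.2 CPM in the third untreated JUN gRNA library. Leaving these out ended the call of DUSP14 in the double KO against WT (-0.54, adjusted p = 0.0940) and of DUSP16 in the DLK KO against WT (-0.28, adjusted p = 0.136), and no other call of the 8 genes and comparisons they belong to, as given beside those results.

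The vincristine effect differed between lines in 35 of 75 tests of a phosphatase that were made, and these tests share libraries. Of all genes, 0.916% to 20.6% were called, depending on the comparison. For the DLK KO minus WT the called phosphatases were DUSP1 (-0.44), DUSP4 (0.67), DUSP7 (0.98) and DUSP16 (-0.41). The LZK KO differed from WT in DUSP1 (-0.53), DUSP4 (0.44) and DUSP7 (0.62). The double KO differed from WT in DUSP1 (-0.99), DUSP5 (-0.59), DUSP7 (0.94), DUSP8 (-1.25), DUSP10 (-0.36), DUSP14 (-0.67) and DUSP16 (-1.89), from the DLK KO in DUSP1 (-0.55), DUSP8 (-1.32) and DUSP16 (-1.48), and from the LZK KO in DUSP16 (-1.54). ATF2 gRNA differed from Control gRNA in DUSP1 (-0.64), DUSP4 (0.18), DUSP5 (-0.62), DUSP6 (0.54), DUSP8 (-0.87), DUSP14 (-0.38) and DUSP16 (-1.91). JUN gRNA differed from Control gRNA in DUSP1 (-0.37), DUSP5 (-0.43), DUSP6 (0.45), DUSP8 (-0.36), DUSP14 (-0.43) and DUSP16 (-0.62). ATF2 gRNA differed from JUN gRNA in DUSP4 (0.19), DUSP8 (-0.51), DUSP10 (-0.39) and DUSP16 (-1.29). All are log2 differences by edgeR's quasi-likelihood test, and their causes were not tested.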

How the results depend on the processing

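Over all members and comparisons, 3857 of the values under an alternative kept their direction and side of the threshold, 70 lost their call, 46 gained one and 0 reversed. The count of called members moved by more than 1.5 times in 4 comparisons, and the cause was not tested. For vincristine with ATF2 gRNA (1 called) it was 3 with DESeq2, RLE factors or the filter at a mean of 1 CPM, 2 with voom or no filter, 0 with the replicate block, and 0 to 3 with libraries left out. It was 0 without the third untreated or the fourth or the fifth treated ATF2 gRNA library, and 3 without the second treated one. For the LZK KO against WT (3 called) the count was 5 with voom, 1 with only the groups compared, and 2 to 5 with libraries left out, 5 without the fourth treated WT library. For the double KO against the DLK KO (3 called) it was 5 with voom and 5 with only the groups compared. Against the LZK KO (1 called) it was 2 with DESeq2, 3 with voom, 2 with only the groups compared, and 1 to 2 with libraries left out, 2 without the second untreated LZK KO library. With libraries left out it moved less in 5 others and in 1 of the 4: 3 to 4 for the DLK KO against WT, 5 to 7 for the double KO against WT, 2 to 3 for the double KO against the DLK KO, 6 to 7 for each gRNA against Control gRNA, and 4 to 5 beyond the sum. The replicate block also gave 6 in place of 7 for the double KO against WT, without DUSP14, and changed no other count of called members. Libraries with the same replicate number were at most weakly alike. Their deviations correlated at -0.22 to 0.15 in experiment 1 (2 of 16 pairs over 0.1) and -0.01 to 0.09 in experiment 2 (0 of 14). In experiment 1, 4 of 16 correlated best with their own number, and in experiment 2, 6 of 14. Whether that is more than chance gives was not tested. Depth limits DUSP2 in experiment 1 and DUSP16 in the double KO, at 13 to 24 counts per library.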
